A study of Mus musculus with 12 samples.

Results

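Integrins and cadherins are the receptors by which cells hold on to the matrix and to each other. The genes described here were all protein-coding genes of the count table whose mouse symbol is a numbered or lettered Itga, a numbered Itgb or a numbered Cdh symbol. They came to 49 of 55487 genes, with 18 integrin alpha subunits, 8 integrin beta subunits and 23 cadherins. Of the cadherins, 5 are type I classical, 13 are type II classical and 5 (Cdh13, Cdh16, Cdh17, Cdh23 and Cdh26) are usually not counted as classical, so the set was wider than the classical cadherins.

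The libraries were RNA sequencing libraries of B16F10, a pigmented mouse melanoma line labelled as wild type, after 24 h in medium that bone-marrow-derived macrophages had conditioned. The macrophages had first been treated for 24 h, with control DMEM (group M0), with 20 ng/ml of a cytokine spelt INF-γ in the labels and taken here as interferon gamma (M1), with 20 ng/ml IL-4, the cytokine interleukin-4 (M2), or with medium that was 75% conditioned by B16F10 cells (TAM, for tumour-associated macrophages). Each group held 3 libraries, and all 12 were melanoma cells that had received macrophage medium, so no group shows the cells without it. The labels state neither that the 3 libraries were separate cultures nor that the cytokine or tumour medium was washed out, and p-values therefore measure the spread between libraries only, which may be technical.

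An integrin is a pair of 1 alpha and 1 beta subunit. The alpha subunit largely sets which ligand is bound: collagens, laminins, proteins with an Arg-Gly-Asp motif such as fibronectin and vitronectin, or cell-surface ligands on leukocyte targets. The beta subunit links the pair to talin, kindlin and the actin skeleton. Classical cadherins bind cadherins on the next cell in the presence of calcium and are coupled to actin by catenins. In melanoma, loss of E-cadherin (Cdh1), gain of N-cadherin (Cdh2) and use of the αvβ3 integrin are well-known features of progression.

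M0 replicate 1 stood apart from the other 11 libraries, and calls of members against M0 are given below with it and without it. Other comparisons of members and values of single partner genes are given with all 12 libraries unless stated. Totals ran from 15916756 to 20863973 counts per library, but the 49 genes took 0.0741% of the counts in M0 replicate 1 and 0.142% to 0.154% in every other library. Across genes, its log2 levels correlated with the other M0 libraries at 0.95 and 0.952, against 0.997 for all other pairs within a group. Its counts lay on shorter genes: the count-weighted exon length was 4545 bp against 5817 to 6091 bp elsewhere, and the 27 members tested had a median exon length of 7015 bp against 3950 bp for all genes tested. The median log2 ratio of M0 replicate 1 to the other M0 libraries was −0.42 over those 27 members and 0.004 over all genes tested. The part of this library in the results was not tested beyond leaving it out, which lowered the common dispersion from 0.0324 to 0.00166.

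The labelled cell type was checked against markers. All 7 melanocyte markers were tested and summed to 13746 to 20435 CPM per library (counts relative to the library total, scaled to 1e6 counts). Of 23 macrophage markers 6 were abundant enough to test, and Ptprc, Adgre1, Tyrobp, C1qa, C1qb, C1qc and Cd53 had 0 counts in every library. Their sum was 5.37 to 8.13 CPM in M0, 23 to 25.1 in M1, 6.02 to 6.72 in M2 and 3.94 to 5.03 in TAM. Most of the M1 sum came from Mpeg1, at 14.6 to 16.6 CPM in M1 and at most 0.0479 CPM elsewhere. The 8 epithelial markers summed to at most 0.154 CPM, the 12 lymphocyte and platelet markers to 0.101 to 1.21 CPM, and the 12 fibroblast and endothelial markers to 17.3 to 31.4 CPM. The part of these markers in the members' results was not tested. In bulk RNA, fewer cells with a transcript and less of it per cell cannot be told apart.

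Of the 49 genes, 26 reached a mean of 1 CPM in at least 1 group, and the number was also 26 without M0 replicate 1. CPM from here on are counts relative to library totals scaled by TMM, a trimmed mean of ratios between libraries. The 26 were 13 integrin alpha, 6 integrin beta and 7 cadherin genes. Another 10 had 0 counts in all 12 libraries (Itgam, Itgax, Cdh3, Cdh4, Cdh5, Cdh7, Cdh8, Cdh12, Cdh20 and Cdh26), which allows up to 0.0131 CPM over all libraries by a limit of 3 counts. The other 13 had highest group means of 0.0336 to 0.838 CPM. They were Cdh1 at the top of that range, then Itgal, Cdh11, Itga11, Itgb7, Cdh18, Itgad, Cdh9, Cdh17, Cdh16, Cdh22, Cdh23 and Itgb6. The alpha subunits of the leukocyte integrins (Itgal, Itgam, Itgax, Itgad) were thus at 0 or below 1 CPM in the melanoma libraries.

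Per kilobase of exon, which allows genes to be compared, Itgb1 led every group with 111 CPM in M0, 143 in M1, 126 in M2 and 131 in TAM. Itgb1 encodes the β1 subunit, the common partner of most alpha subunits found here. In M2 the next levels per kilobase were 20.9 for Cdh19, 17.6 for Itga6, 16.2 for Itgav, 15.1 for Itgb5, 12.8 for Cdh2, 12.6 for Itga5, 9.53 for Itga4, 9.42 for Itgb3 and 8.23 for Itga9. Every other member was at or below 0.791 in M2. At the RNA level in M2, the line thus had a few abundant subunit genes. Itga4, Itga5, Itga6, Itga9 and Itgav were its main alpha genes and Cdh19 and Cdh2 its main cadherin genes. Protein was not measured in these libraries.

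**Figure D1:**
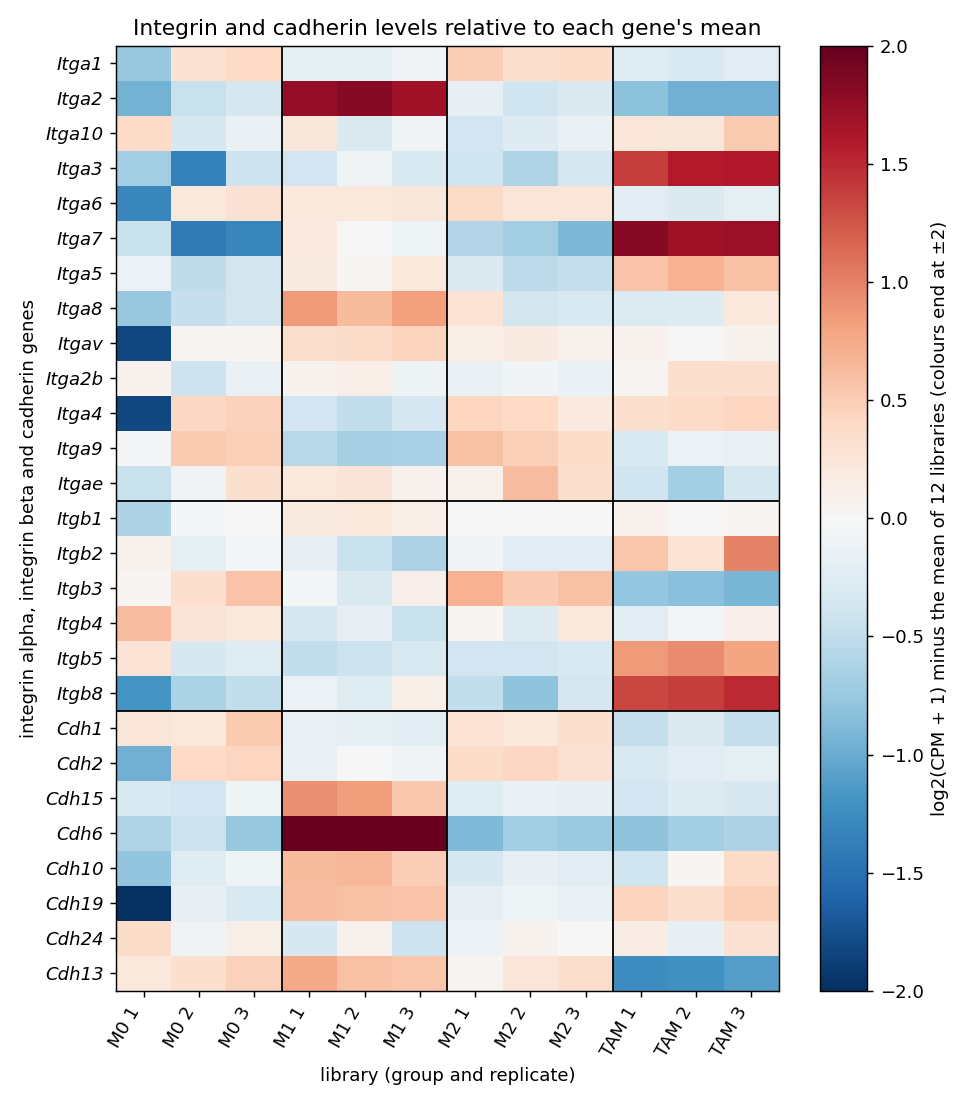
Levels of the 27 tested integrin and cadherin genes in the 12 libraries, as log2(CPM + 1) minus each gene's mean over all libraries, with red above and blue below the mean. M0 replicate 1 is blue for Itgav and Itga4 where both other M0 libraries are not. Itga2 and Cdh6 are red in M1, and Itga3, Itga7 and Itgb8 are red in TAM.

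Integrin and cadherin genes differed between the M1 or TAM and the M0 media, and none passed the test between M2 and M0. A gene was called at an adjusted p under 0.05 in a model over all genes tested, and 27 members, the 26 and Cdh1, had enough counts to be tested. In M1 versus M0, 9 members were higher and 3 lower, beside 12.2% of all tested genes higher and 13.5% lower. In TAM versus M0, 7 were higher and 5 lower, beside 23.3% and 27.2%. In M2 versus M0 the count was 0 in both directions, beside 0% and 0% of all genes, with 0 members at an unadjusted p under 0.05 and 0 called by DESeq2. The members' share was near that of all genes in TAM, so the TAM counts say nothing particular about the family, and what follows is about the genes. M1, M2 and TAM were all set against the same M0 libraries, so these 3 comparisons are not independent.

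More members were called without M0 replicate 1, as were more genes in all. In M1 versus M0 there were 12 higher and 7 lower members, beside 24.3% and 22.9% of all genes. In TAM versus M0 there were 9 and 9, beside 33% and 33.7%. In M2 versus M0 the count stayed at 0, beside 0.207% and 0.134%, with Itga7, Itgav and Cdh19 at an unadjusted p under 0.05. The 12 members called with all 12 libraries were called in the same direction without that library, in M1 versus M0 and again in TAM versus M0. Fits of only the 2 groups compared did not call Itga5, Itga7, Itgb4, Itgb8, Cdh1, Cdh10 and Cdh19 in M1 versus M0, nor Itga9, Itgb2 and Cdh19 in TAM versus M0.

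The other 3 comparisons do not use the M0 means. In TAM versus M1, 7 members were higher and 7 lower, beside 19.8% and 23.3% of all genes, and 9 and 13, beside 32.4% and 37.7%, when the fit left out M0 replicate 1. In TAM versus M2 there were 7 and 7, beside 20.7% and 22.6%, or 9 and 10, beside 34.2% and 35.3%. In M1 versus M2 there were 7 and 3, beside 9.72% and 7.5%, or 12 and 6, beside 24.8% and 23.5%. Leaving out M0 replicate 1 changes these 3 comparisons through the shared estimate of the spread, the scaling and the genes that pass the filter, and Cdh10 in TAM versus M1, for example, went from −0.75 to −0.79.

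The median log2 fold change of the 27 tested members was 0.33 in M1 versus M0 and 0.23 in TAM versus M0, against −0.02 for all genes tested in both. The members' medians were 0.30 and 0.00 without M0 replicate 1, against 0.01 and 0.00. The tested members are not all members, and 2 of them, Cdh6 and Cdh15, reached 0.518 CPM, the level of 10 counts in a library of median size, in M1 libraries only, so that they could enter the test only by being higher there.

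**Figure D2:**
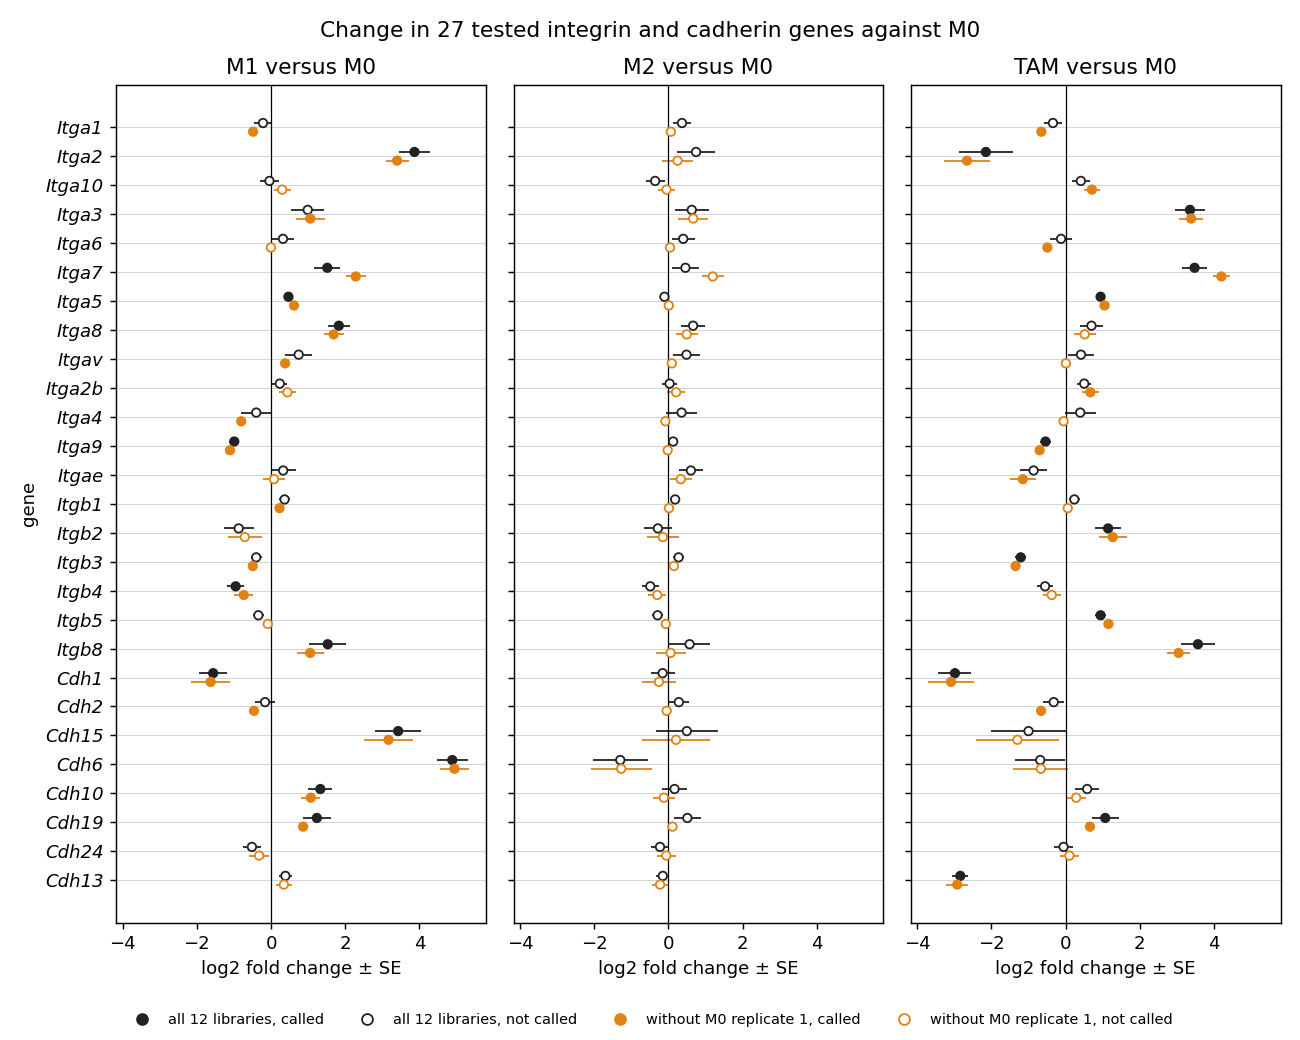
Log2 fold change ± SE of each tested gene in M1, M2 and TAM versus M0, with all 12 libraries (black) and without M0 replicate 1 (orange). Filled points passed an adjusted p of 0.05, which no point did in M2, and the points of Itga7 and Itgb8 differ between both fits in TAM, at 3.48 and 4.20 and at 3.56 and 3.04.

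Among the collagen-binding alpha subunits, Itga2 was the member that M1 and TAM media moved in opposite directions. Itga2 encodes α2 of the collagen and laminin receptor α2β1 and lies on the minus strand at chr13:114833081-114932100 (mm10). Its levels in replicates 1 to 3, the order used throughout, were 0.0557, 0.5 and 0.622 CPM in M0, 5.88, 6.21 and 5.60 in M1, 0.820, 0.545 and 0.656 in M2, and 0.157, 0.0498 and 0.0502 in TAM. All M1 libraries were far above all others, and the TAM libraries were the lowest but for M0 replicate 1, which lay between them. The log2 fold change was 3.87 ± 0.43 (SE) in M1 versus M0 (adjusted p = 6.95e-05) and −2.15 ± 0.72 in TAM versus M0 (adjusted p = 0.0281). These were 3.40 ± 0.31 and −2.66 ± 0.61 without M0 replicate 1, and TAM no longer overlapped M0. The TAM level rested on 5 counts in 3 libraries, and TAM did not pass without M0 replicate 2 (adjusted p = 0.0628), M0 replicate 3 (0.121), TAM replicate 2 (0.0902) or TAM replicate 3 (0.0911), nor with the replicate number as a block (−2.13, adjusted p = 0.0520).

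Itga1, the α1 collagen receptor gene, lies 20995 bp beyond Itga2 on the same strand and did not share its M1 rise. Its group means were 11.4 ± 4.69 CPM (SD, n = 3) in M0, 9.82 ± 0.553 in M1, 14.7 ± 0.837 in M2 and 8.99 ± 0.343 in TAM. With all 12 libraries it was called only in TAM versus M2, at −0.71 ± 0.25, and this call was lost when any library of M1, M2 or TAM was left out (adjusted p = 0.0541 to 0.105). Without M0 replicate 1, at 6.01 CPM against 13.6 and 14.6 in the other M0 libraries, Itga1 was also lower in M1 (−0.48 ± 0.12) and in TAM (−0.66 ± 0.12) than in M0. Pelo, a gene inside Itga1 on the same strand that shares none of its exons, stood at 1.60 to 2.58 CPM as a group mean without TMM scaling.

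Itga10, encoding the collagen receptor chain α10, had means of 3.49 ± 1.20 CPM in M0, 3.39 ± 0.780 in M1, 2.73 ± 0.325 in M2 and 4.64 ± 0.671 in TAM. It was higher in TAM than in M2 (0.77 ± 0.25, adjusted p = 0.029), and without M0 replicate 1 also higher in TAM than in M0 (0.71 ± 0.22) and M1 (0.41 ± 0.19). The call against M2 was lost without M2 replicate 1 or 2 or TAM replicate 1 or 3 (adjusted p = 0.0505 to 0.111). Itga11 did not reach 1 CPM. Of the 3 collagen-receptor alpha genes tested, only Itga2 changed by at least 2-fold in a called comparison.

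Itga3 and Itga7, laminin receptor genes that were low in M0, rose in TAM medium. The ratios from the fitted log2 fold changes were 10.2 and 11.1, or 10.4 and 18.4 without M0 replicate 1. Itga3 encodes α3 of the laminin receptor α3β1 and lies on the minus strand at chr11:95044474-95076801. It stood at 0.780, 0.125 and 1.15 CPM in M0, 1.20, 1.74 and 1.34 in M1, 1.18, 0.892 and 1.26 in M2, and 6.53, 7.67 and 7.77 in TAM. Every TAM library was above every other library by a wide gap, while M0 and M2 overlapped. Its change in TAM versus M0 was 3.35 ± 0.40 (adjusted p = 5.4e-05) and 3.38 ± 0.32 without M0 replicate 1. Itga3 was also higher in TAM than in M1 (2.36 ± 0.37) and M2 (2.72 ± 0.38), and M1 was called above M0 without M0 replicate 1 (1.06 ± 0.40, adjusted p = 0.0259) or without M0 replicate 3 (1.60, adjusted p = 0.0299) but not with all 12 libraries.

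Itga7 encodes α7, the laminin receptor chain known from muscle, on the plus strand at chr10:128933818-128958282. It stood at 2.28, 0.688 and 0.814 CPM in M0, 4.17, 3.48 and 3.22 in M1, 2.00, 1.78 and 1.42 in M2, and 14.9, 13.6 and 13.7 in TAM. TAM was highest, M1 next, and neither overlapped another group, while M0 replicate 1 was above all M2 libraries and the other M0 libraries below them. The change was 3.48 ± 0.34 in TAM versus M0 (adjusted p = 1.05e-05) and 1.52 ± 0.35 in M1 versus M0 (adjusted p = 0.00862). Itga7 changed by 4.20 ± 0.23 in TAM and by 2.28 ± 0.27 in M1 when M0 replicate 1 was left out. In M2 versus M0 it then came close to the threshold, at 1.20 ± 0.30 (adjusted p = 0.0589), against 0.46 ± 0.37 with all libraries. TAM exceeded M1 by 1.96 ± 0.30.

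Itga6, whose α6 chain pairs with β1 or β4 as a laminin receptor, went the other way in the fit without M0 replicate 1. It was the most abundant laminin-receptor alpha gene, with means of 120 ± 59.5 CPM in M0, 150.2 ± 1.22 in M1, 159 ± 8.69 in M2 and 110.1 ± 3.70 in TAM. M0 replicate 1 held 51.6 CPM and the other M0 libraries 149.9 and 159 CPM. With all 12 libraries no comparison was called for Itga6 (TAM versus M0 at −0.12 ± 0.31). Without M0 replicate 1 it was lower in TAM than in M0 (−0.49 ± 0.05, adjusted p = 1.45e-13), M1 (−0.49 ± 0.04) and M2 (−0.54 ± 0.04). Even so, per kilobase of exon Itga6 in TAM, at 12.2 CPM, remained above Itga7 at 1.74 and Itga3 at 1.28.

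Among the Arg-Gly-Asp-binding alpha subunits, Itga5 rose in both media and Itga8 in M1 medium. Itga5 encodes α5 of the fibronectin receptor α5β1 (minus strand, chr15:103344286-103366763). It stood at 77.1, 58.9 and 64.7 CPM in M0, 94.8, 85.5 and 97.5 in M1, 68.4, 57.8 and 60.3 in M2, and 124, 135 and 126 in TAM. M1 lay above all M0 and M2 libraries, and TAM above all M1 libraries. The changes were 0.47 ± 0.12 in M1 (adjusted p = 0.0131) and 0.94 ± 0.12 in TAM (adjusted p = 6.16e-05), with TAM above M1 by 0.47 ± 0.12 and above M2 by 1.05 ± 0.12. M0 replicate 1 was the highest M0 library here, and without it the changes were 0.62 ± 0.07 and 1.05 ± 0.07. Without M1 replicate 3 the M1 change was 0.43 and not called (adjusted p = 0.0551).

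Itga8, encoding α8 of a receptor for nephronectin and other Arg-Gly-Asp proteins (minus strand, chr2:12106632-12301922), stood at 0.947, 1.38 and 1.53 CPM in M0, 4.89, 4.06 and 4.81 in M1, 2.97, 1.54 and 1.64 in M2, and 1.72, 1.74 and 2.81 in TAM. M1 was above every other library. Its change in M1 was 1.83 ± 0.30 versus M0 (adjusted p = 0.00132), 1.16 ± 0.29 versus M2, and TAM was lower than M1 by −1.13 ± 0.29. The difference from M2 was not called without M1 replicate 1 or 3 or M2 replicate 2 or 3 (adjusted p = 0.0574 to 0.0779). In TAM versus M0 the value was 0.70 ± 0.32 (adjusted p = 0.0867) though the groups did not overlap, and without M0 replicate 1 it was 0.51 ± 0.30 (adjusted p = 0.124).

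Itgav encodes αv, the partner of β1, β3, β5, β6 and β8. Its means were 124 ± 69.3 CPM in M0, 208 ± 8.43 in M1, 174 ± 5.42 in M2 and 165 ± 4.88 in TAM, and M0 replicate 1 held 44.0 CPM against 165 and 163 in the other M0 libraries. It was called in no comparison with all 12 libraries. With M0 replicate 1 left out, Itgav was higher in M1 than in M0 (0.38 ± 0.04, adjusted p = 3.16e-10) and M2 (0.29 ± 0.04), and TAM was at 0.01 ± 0.04 versus M0. Itga2b, known as the platelet αIIb gene, had means of 2.57 to 3.64 CPM and was not called with all 12 libraries. It was higher in TAM than in M0 (0.67 ± 0.23) and M2 (0.46 ± 0.20) without M0 replicate 1, and TAM versus M0 was also called under RLE scaling (0.51, adjusted p = 0.0488) and without TAM replicate 1 (0.62, adjusted p = 0.0356). Of the platelet markers, Pf4 and Ppbp had 0 counts in every library, Gp1ba had 5, 5 and 12 counts in TAM against 0, 2 and 4 in M0, and Gp9 had 0, 0 and 4 in TAM against 9, 3 and 11 in M0. Their part in the Itga2b values was not tested.

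Itga4 and Itga9, which encode closely related chains that bind VCAM-1, osteopontin and the spliced or extra-domain parts of fibronectin, were both lower in M1 medium, Itga4 only in the fit without M0 replicate 1. Itga9 (plus strand, chr9:118606690-118901003) stood at 44.7, 65.7 and 63.2 CPM in M0, 30.5, 28.3 and 28.6 in M1, 68.1, 63.2 and 58.5 in M2, and 36.6, 41.8 and 40.7 in TAM. The M1 libraries were the lowest, the TAM libraries next, and neither overlapped M0 or M2. Itga9 fell in M1 (−0.99 ± 0.14, adjusted p = 0.000434) and in TAM (−0.54 ± 0.14, adjusted p = 0.00722), or by −1.11 ± 0.07 and −0.70 ± 0.07 without M0 replicate 1. It was higher in TAM than in M1 by 0.45 ± 0.14, a call that was lost without any of the M1 libraries or without TAM replicate 2 or 3 (adjusted p = 0.0522 to 0.115).

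Itga4 held means of 104 ± 65 CPM in M0, 78.9 ± 4.59 in M1, 133 ± 11.7 in M2 and 136 ± 5.56 in TAM. M0 replicate 1 held 29.0 CPM, below every other library, and the other M0 libraries 139 and 144 CPM. With all 12 libraries Itga4 was called nowhere, and M1 versus M0 was −0.40 ± 0.42. It fell in M1 when M0 replicate 1 was left out (−0.80 ± 0.06, adjusted p = 6.55e-14) and did not pass in TAM (−0.06 ± 0.06, adjusted p = 0.38), so M1 also lay below TAM, by 0.75 ± 0.05. Cerkl, on the opposite strand, shares 1124 bases of exon with Itga4 and stood at 1.98 to 3.85 CPM as a group mean without TMM scaling.

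Within a library, the level of the α9 gene relative to the α5 gene differed by group. The ratio of Itga9 to Itga5 per kilobase of exon was 0.371, 0.716 and 0.626 in M0, 0.206, 0.212 and 0.188 in M1, 0.638, 0.701 and 0.623 in M2, and 0.189, 0.198 and 0.208 in TAM. M1 and TAM overlapped each other and lay below every M0 and M2 library. Itga5 was called higher and Itga9 lower in both media versus M0, so a difference in their ratio follows from the choice of this pair. No test was run on it. A ratio of Itga5 to Itga4 was also computed, in which M0 replicate 1, at 7.55, lay above every other library.

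Itgae, the αE chain of the E-cadherin receptor αEβ7 of intraepithelial lymphocytes, was low and lowest in TAM. It stood at 0.835, 1.38 and 2.11 CPM in M0, 1.87, 1.97 and 1.64 in M1, 1.64, 2.82 and 2.19 in M2, and 0.887, 0.548 and 0.953 in TAM. TAM lay below all M1 and M2 libraries and overlapped M0 only through M0 replicate 1. It was lower in TAM than in M1 (−1.19 ± 0.35, adjusted p = 0.0186) and M2 (−1.47 ± 0.35, adjusted p = 0.00554), and lower than in M0 only without that library (−1.15 ± 0.34, adjusted p = 0.00267). The call against M1 was lost without M1 replicate 2 (adjusted p = 0.0524) or TAM replicate 2 (0.0674). Haspin, a mitotic kinase gene inside Itgae on the opposite strand that shares none of its exons, stood at 29.8 CPM in M0, 26.6 in M1, 31.3 in M2 and 9.22 in TAM without TMM scaling. Without a stated strand, reads of such neighbours cannot be told apart where they overlap, and the part of Haspin in the Itgae values was not tested. Itgb7, the partner of αE, stayed below 1 CPM.

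Among the beta subunits, Itgb1 was the most abundant. Its means were 455 ± 101 CPM in M0, 585 ± 14.4 in M1, 516 ± 3.44 in M2 and 535 ± 13.0 in TAM, and M0 replicate 1 held 338 CPM against 507 and 518. With all 12 libraries it was not called in any comparison, with M1 versus M0 at 0.36 ± 0.14 (adjusted p = 0.077), but M1 versus M0 was called by DESeq2 (0.39, adjusted p = 0.0375) and when M0 replicate 2 or 3 was left out (adjusted p = 0.0461 and 0.0361). Without M0 replicate 1 it was higher in M1 than in M0 (0.23 ± 0.04, adjusted p = 1.93e-06), M2 (0.21 ± 0.04) and TAM, where TAM versus M1 was −0.17 ± 0.03.

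The beta partners of αv diverged in TAM medium: Itgb5 and Itgb8 rose and Itgb3 fell. Itgb5 encodes β5 of the vitronectin receptor αvβ5 (plus strand, chr16:33829665-33949338). It stood at 84.2, 55.0 and 58.1 CPM in M0, 48.8, 51.1 and 55.8 in M1, 52.6, 53.0 and 55.8 in M2, and 126, 134 and 120 in TAM. Every TAM library exceeded every other library, and M0 replicate 1 was the highest of the rest. Its change in TAM versus M0 was 0.94 ± 0.15 (adjusted p = 0.000313), and 1.15 ± 0.06 without M0 replicate 1. It was 1.28 ± 0.15 in TAM versus M1 and 1.23 ± 0.15 in TAM versus M2.

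Itgb3 encodes β3 of αvβ3 (plus strand, chr11:104608000-104670476). It stood at 37.3, 45.9 and 54.4 CPM in M0, 35.7, 29.5 and 39.1 in M1, 59.7, 51.9 and 55.2 in M2, and 20.8, 19.9 and 18.8 in TAM. The TAM libraries were the lowest, and M1 overlapped M0 only through M0 replicate 1. Itgb3 fell in TAM versus M0 by 1.21 on the log2 scale (SE 0.15, adjusted p = 6.15e-05) and by 1.35 without M0 replicate 1. It was lower in M1 than in M2 (−0.68 ± 0.15), and lower in M1 than in M0 without that library (−0.49 ± 0.09, adjusted p = 7.8e-05, against 0.0665 with it) or with upper-quartile scaling of all 12 libraries (−0.45, adjusted p = 0.0339).

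The ratio of Itgb5 to Itgb3 per kilobase of exon was 3.75, 1.99 and 1.77 in M0, 2.27, 2.88 and 2.37 in M1, 1.46, 1.70 and 1.68 in M2, and 10.1, 11.2 and 10.6 in TAM. The TAM ratios lay above all others, and the ratio of M0 replicate 1 was the next highest. In all 12 libraries the ratio was above 1, so Itgb5 exceeded Itgb3 per kilobase of exon in every group. In CPM not divided by exon length, Itgb5 had the higher mean in M0, M1 and TAM. In M2 it did not, with means of 53.8 CPM for Itgb5 and 55.6 CPM for Itgb3. The ratio was computed after its genes were seen to move in opposite directions, and no test was run on it.

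Itgb8 encodes β8, whose αvβ8 integrin is known for binding latent TGF-β (minus strand, chr12:119158022-119238802). It stood at 0.0557, 0.563 and 0.718 CPM in M0, 1.25, 1.04 and 1.64 in M1, 0.718, 0.396 and 0.929 in M2, and 5.12, 5.33 and 5.82 in TAM. TAM was well above all other libraries and M1 above all M0 and M2 libraries. Its change was 3.56 ± 0.46 in TAM versus M0 (adjusted p = 8.88e-05) and 1.53 ± 0.50 in M1 versus M0 (adjusted p = 0.0462), or 3.04 ± 0.31 and 1.05 ± 0.36 without M0 replicate 1, which held a lower level than any other library. The M1 call was kept in 6 of 18 alternative settings (adjusted p up to 0.200, in the fit of M1 and M0 alone, and 0.145 with M1 replicate 3 left out), while the TAM call was kept in all 18.

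Itgb4 and Itgb2 changed at low levels. Itgb4, the β4 chain of the laminin receptor α6β4, had means of 3.55 ± 0.737 CPM in M0, 1.83 ± 0.287 in M1, 2.54 ± 0.568 in M2 and 2.41 ± 0.362 in TAM, and was lower in M1 than in M0 (−0.95 ± 0.23, adjusted p = 0.012, or −0.73 ± 0.25 without M0 replicate 1). Itgb2, the common beta chain of leukocyte integrins, stood at 1.11, 0.750 and 0.958 CPM in M0, 0.781, 0.464 and 0.297 in M1, 0.923, 0.693 and 0.710 in M2, and 1.93, 1.39 and 2.96 in TAM. All TAM libraries were above all others. It was higher in TAM than in M0 (1.14 ± 0.35, adjusted p = 0.0181, or 1.27 ± 0.38 without M0 replicate 1), M1 (2.02 ± 0.38) and M2 (1.43 ± 0.35). The sum of macrophage markers, given above, was lowest in TAM and Ptprc, the pan-leukocyte marker, was at 0 in every library. Of the same markers Fcgr1 had 4, 4 and 5 counts in TAM and at most 1 in any other library, and Spi1 had 0, 2 and 9 in TAM and 1 to 6 elsewhere. Their part in the Itgb2 values was not tested. Itgb2 did not pass against M0 when M0 replicate 2 was left out (adjusted p = 0.0547) or TAM replicate 3 (0.0907), and that of Itgb4 without M1 replicate 3 (0.0578).

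**Figure D3:**
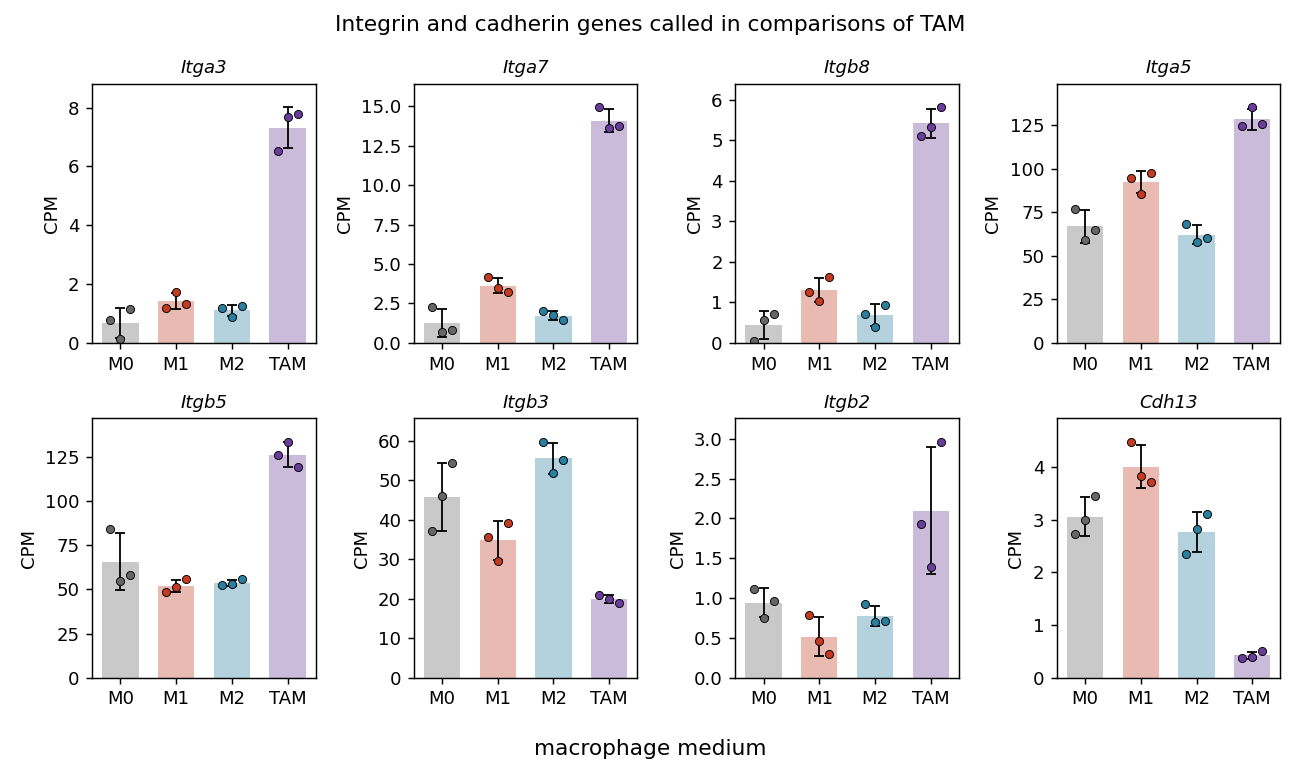
CPM of 8 integrin and cadherin genes by group, with a point for each library, bars for the mean and error bars for the SD of 3 libraries. Itga3, Itga7, Itgb8, Itga5, Itgb5 and Itgb2 are highest in the TAM libraries and Itgb3 and Cdh13 lowest, with no overlap between TAM and any other group.

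Of the type I cadherins, Cdh2 was abundant, Cdh1 had group means below 1 CPM, and Cdh15 had a mean above 1 CPM in M1 only. Cdh2, N-cadherin, had means of 84.7 ± 38.4 CPM in M0, 75.8 ± 3.70 in M1, 103 ± 3.50 in M2 and 67.8 ± 3.03 in TAM. M0 replicate 1 held 40.4 CPM and the other M0 libraries 106 and 108 CPM. With all 12 libraries Cdh2 was called nowhere (−0.16 ± 0.28 in M1 and −0.32 ± 0.28 in TAM versus M0). Without M0 replicate 1 it was lower in M1 (−0.46 ± 0.05, adjusted p = 1.22e-10) and in TAM (−0.66 ± 0.05, adjusted p = 3.08e-16), and lower in TAM than in M1 (−0.20 ± 0.05).

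Cdh1, E-cadherin, did not reach 1 CPM in any group but was tested. It stood at 0.724, 0.688 and 1.1 CPM in M0, 0.312, 0.290 and 0.248 in M1, 0.769, 0.693 and 0.820 in M2, and 0.0522, 0.199 and 0.0502 in TAM. M1 lay below M0 and M2, and TAM below M1, without overlap. Only M0 and M2 libraries reached the 0.518 CPM of the count filter, so Cdh1 entered the test through the groups where it was higher. It fell in M1 (−1.56 ± 0.38, adjusted p = 0.0114) and in TAM (−2.98 ± 0.45, adjusted p = 0.000228), or by −1.63 ± 0.53 and −3.09 ± 0.63 without M0 replicate 1. The M1 call was lost without M1 replicate 3 (adjusted p = 0.0550). The group sums behind these values were 47 counts in M0, 16 in M1, 44 in M2 and 6 in TAM. Cdh3, P-cadherin, which lies 46053 bp from Cdh1, had 0 counts in all libraries.

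Cdh15, M-cadherin of muscle (plus strand, chr8:122847966-122867397), stood at 0.0557, 0 and 0.239 CPM in M0, 1.46, 1.34 and 0.892 in M1, 0.103, 0.198 and 0.164 in M2, and 0, 0.0996 and 0.0502 in TAM. Only the M1 libraries were near or above 1 CPM. Only they reached the 0.518 CPM of the count filter, so the direction of the Cdh15 calls was set by the filter. Its change was 3.43 ± 0.62 in M1 versus M0 (adjusted p = 0.00229), or 3.17 ± 0.66 without M0 replicate 1, from 69 counts in M1 and 6 in M0. Against the 3 counts of TAM, the ratio of M1 was 24.1, with an exact conditional binomial interval at 95% of 7.92 to 120, which covers counting error only.

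Of the type II cadherins, Cdh6 showed the strongest M1 rise of any member. Cdh6, K-cadherin of kidney and neural crest (minus strand, chr15:13028701-13173675), stood at 0.223, 0.375 and 0.0958 CPM in M0, 6.66, 6.33 and 7.19 in M1, 0, 0.149 and 0.109 in M2, and 0.0522, 0.149 and 0.201 in TAM. All libraries but those of M1 were below 0.4 CPM. Cdh6 thus reached the 0.518 CPM of the count filter in M1 libraries only, so the direction of its calls was set by the filter. The change was 4.89 ± 0.42 in M1 versus M0 (adjusted p = 9.76e-06), a fitted ratio of 29.6 from 382 and 12 counts, and 4.94 ± 0.39 without M0 replicate 1. It was 6.18 ± 0.48 in M1 versus M2 and −5.57 ± 0.45 in TAM versus M1. TAM versus M0 was not called, at −0.69 ± 0.67.

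Cdh10, a neural type II cadherin on the same chromosome (plus strand, chr15:18818947-19014236), stood at 0.835, 1.69 and 2.01 CPM in M0, 3.96, 4.06 and 3.47 in M1, 1.54, 1.83 and 1.75 in M2, and 1.41, 2.24 and 3.16 in TAM. M1 was above all other libraries and TAM overlapped M0 and M2. It was higher in M1 than in M0 (1.33 ± 0.32, adjusted p = 0.0122, or 1.07 ± 0.26 without M0 replicate 1) and M2 (1.16 ± 0.32), but the call against M2 was lost when any M1 or M2 library was left out (adjusted p = 0.0575 to 0.0987). Cdh24 had means of 1.96 to 2.78 CPM and was called in no comparison, with or without M0 replicate 1.

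Cdh19, a type II cadherin of the Schwann cell and melanocyte lineages, was the most abundant cadherin per kilobase of exon and rose in M1 and TAM media. It lies on the minus strand at chr1:110888326-110977584. Its libraries held 21.4, 87.3 and 79.4 CPM in M0, 150, 147 and 145 in M1, 87.7, 92.2 and 88.3 in M2, and 134, 124 and 136 in TAM. The 4 groups did not overlap, in the order M1, TAM, M2, M0, but M0 replicate 1 lay far below the other M0 libraries. With all libraries the changes were 1.24 ± 0.37 in M1 (adjusted p = 0.0324) and 1.07 ± 0.37 in TAM (adjusted p = 0.0323), and each was lost when any library of its medium was left out (adjusted p = 0.0767 to 0.0829 and 0.0631 to 0.0798). Both were, without M0 replicate 1, smaller and more precise, 0.86 ± 0.05 (adjusted p = 1.02e-20) and 0.65 ± 0.05 (adjusted p = 1.91e-16), and TAM lay below M1 by −0.21 ± 0.04.

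The ratio of Cdh19 to Cdh2 per kilobase of exon was 0.997, 1.56 and 1.39 in M0, 3.94, 3.51 and 3.59 in M1, 1.60, 1.63 and 1.67 in M2, and 3.91, 3.40 and 3.65 in TAM. M1 and TAM overlapped and lay above all M0 and M2 libraries. The ratio was above 1 in all libraries but M0 replicate 1. This ratio too was chosen after its genes had been seen, and no test was run on it.

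**Figure D4:**
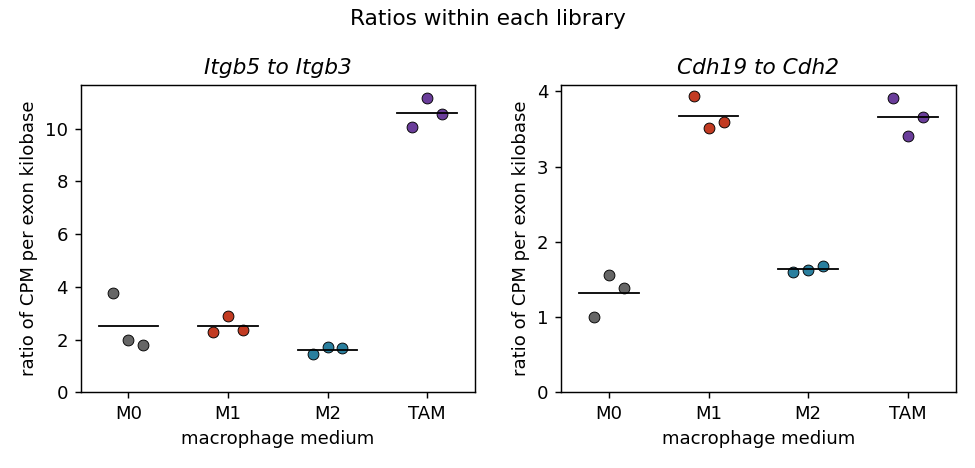
Ratios of CPM per exon kilobase within each library, Itgb5 to Itgb3 on the left and Cdh19 to Cdh2 on the right, with a point for each library and a line at the group mean. The Itgb5 to Itgb3 ratio is 10.1 to 11.2 in TAM and at most 3.75 elsewhere, and the Cdh19 to Cdh2 ratio is at least 3.40 in M1 and TAM and at most 1.67 in M0 and M2.

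Cdh13, T-cadherin, which is held in the membrane by a GPI anchor and has no cytoplasmic tail, fell in TAM medium. The gene lies on the plus strand at chr8:118283733-119324921. It stood at 2.73, 3.00 and 3.45 CPM in M0, 4.48, 3.83 and 3.72 in M1, 2.36, 2.82 and 3.11 in M2, and 0.365, 0.398 and 0.502 in TAM. The TAM libraries were far below all others, and here M0 replicate 1 was close to the rest of M0. The change in TAM versus M0 was −2.84 ± 0.22 (adjusted p = 1.61e-06) and −2.92 ± 0.30 without M0 replicate 1, and in TAM versus M1 it was −3.23 ± 0.21. M1 versus M0 was not called (0.39 ± 0.17, adjusted p = 0.118) although the groups did not overlap.

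**Figure D5:**
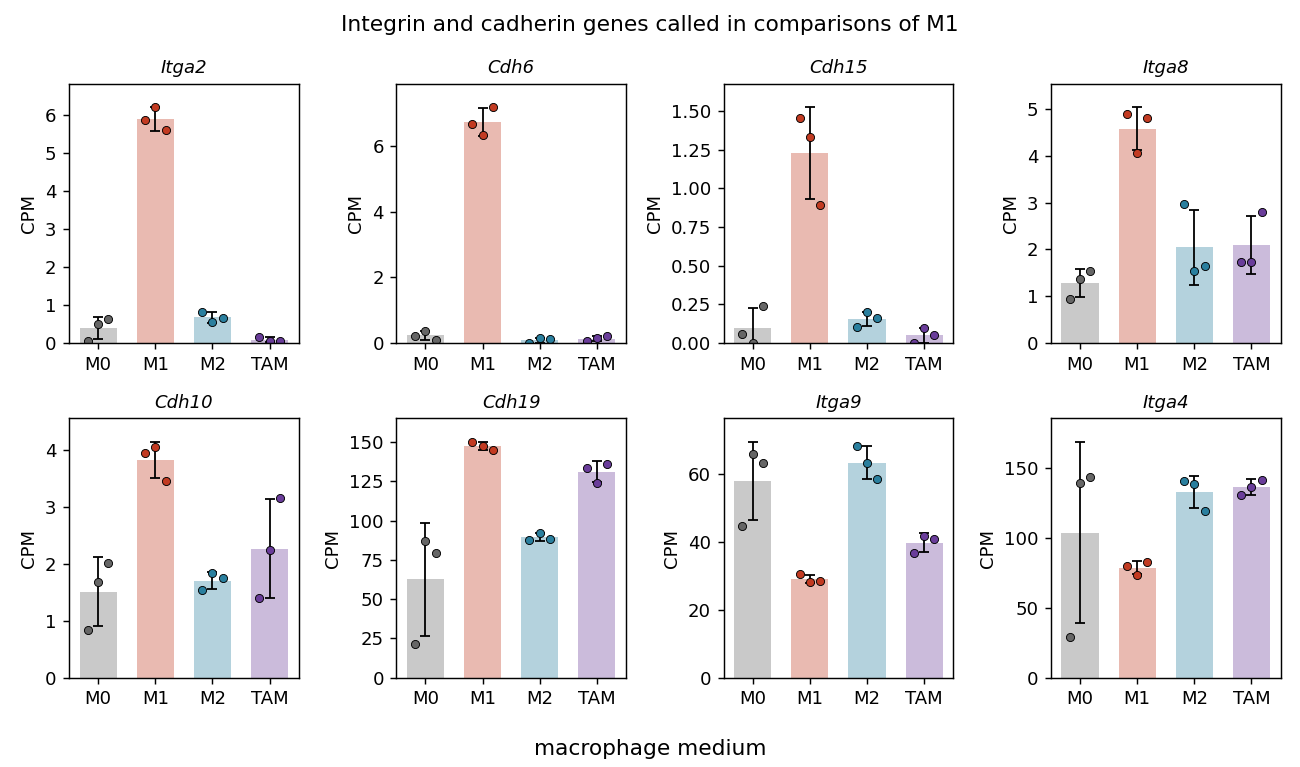
CPM of 8 integrin and cadherin genes by group, with a point for each library, bars for the mean and error bars for the SD of 3 libraries. Itga2, Cdh6, Cdh15, Itga8, Cdh10 and Cdh19 are highest in the M1 libraries, Itga9 is lowest there, and the low M0 points of Cdh19 and Itga4 are M0 replicate 1.

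TAM was also set directly against M1, a comparison that does not use the M0 means. Higher in TAM were Itga3, Itga5, Itga7, Itga9, Itgb2, Itgb5 and Itgb8, and lower were Itga2, Itga8, Itgae, Itgb3, Cdh6, Cdh13 and Cdh15. The called TAM versus M1 differences ran from −6.02 ± 0.53 for Itga2 to 2.36 ± 0.37 for Itga3. All called cadherin genes were on the lower side. Of these, Cdh6 and Cdh15 reached the level of the count filter in M1 libraries only, so their direction here was set by the filter. Without M0 replicate 1, Cdh2 (−0.20), Cdh19 (−0.21) and Cdh10 were called lower too. Cdh10 was at −0.79 ± 0.22, against −0.75 ± 0.31 and an adjusted p of 0.0723 with that library. For Itgb4 and Cdh19, called against M0 in M1, TAM versus M1 was 0.40 ± 0.23 and −0.17 ± 0.36, neither called with all 12 libraries. For Cdh1 it was −1.42 ± 0.52 (adjusted p = 0.0529), and not called without M0 replicate 1 either.

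Against M2, Itga3, Itga5, Itga7, Itga10, Itgb2, Itgb5 and Itgb8 were higher in TAM and Itga1, Itga2, Itga9, Itgae, Itgb3, Cdh1 and Cdh13 lower. In M1 versus M2, Itga2, Itga5, Itga7, Itga8, Cdh6, Cdh10 and Cdh15 were higher and Itga9, Itgb3 and Cdh1 lower. As in TAM versus M1, the direction of Cdh6 and Cdh15 was set by the filter. The Itga7 and Cdh1 calls in M1 versus M2 (1.06 ± 0.33 and −1.40 ± 0.38) were lost when any M1 or M2 library was left out (adjusted p = 0.0888 to 0.170 and 0.0597 to 0.105), and that of Itga7 also when any TAM library was (0.0672 to 0.0680).

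The promoters of members that moved together are shown for comparison, Itga2 and Cdh6 for the M1 rise and Itga3 and Itgb8 for the TAM rise. RefSeq windows from 250 bases before to 50 bases after a start (GRCm38.p6, the mm10 assembly) were matched for 31 of 49 members, 35 windows in all. The windows are chr13:114932051-114932350 for Itga2, chr15:13173626-13173925 for Cdh6, chr11:95076665-95076964 for Itga3 and chr12:119238227-119238526 for Itgb8, all on the minus strand and printed 5′ to 3′ in the direction of the gene. Capitals mark matches, on either strand, to any of 5 motifs: the STAT site TTCNNNGAA, the interferon-stimulated response element (GAAA, any 2 bases, GAAA), the AP-1 site TGANTCA, the ATF4 element TGATGNAA, and CACCTG, the E-box that Snail and Zeb factors bind.
Itga2: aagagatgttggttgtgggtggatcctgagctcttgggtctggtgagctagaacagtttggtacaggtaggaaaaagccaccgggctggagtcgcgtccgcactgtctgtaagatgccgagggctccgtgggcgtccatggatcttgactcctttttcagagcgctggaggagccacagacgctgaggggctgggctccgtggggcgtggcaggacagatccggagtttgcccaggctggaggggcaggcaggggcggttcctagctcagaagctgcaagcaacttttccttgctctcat
Cdh6: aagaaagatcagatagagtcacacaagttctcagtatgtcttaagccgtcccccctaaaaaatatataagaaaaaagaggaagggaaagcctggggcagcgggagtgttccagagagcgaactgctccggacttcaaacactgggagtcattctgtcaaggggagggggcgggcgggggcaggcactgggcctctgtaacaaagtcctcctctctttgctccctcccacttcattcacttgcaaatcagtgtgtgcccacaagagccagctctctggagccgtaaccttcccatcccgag
Itga3: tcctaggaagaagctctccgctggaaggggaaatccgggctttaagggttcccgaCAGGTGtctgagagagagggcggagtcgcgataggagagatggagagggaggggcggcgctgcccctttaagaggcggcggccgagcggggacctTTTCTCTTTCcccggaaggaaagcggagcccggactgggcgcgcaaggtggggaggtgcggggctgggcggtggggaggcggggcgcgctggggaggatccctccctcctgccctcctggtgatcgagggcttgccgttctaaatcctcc
Itgb8: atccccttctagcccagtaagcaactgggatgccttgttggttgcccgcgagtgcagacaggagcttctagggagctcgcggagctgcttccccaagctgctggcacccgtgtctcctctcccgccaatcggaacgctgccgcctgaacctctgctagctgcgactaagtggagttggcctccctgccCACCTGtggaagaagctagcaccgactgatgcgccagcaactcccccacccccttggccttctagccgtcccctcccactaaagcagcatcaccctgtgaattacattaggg

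The Itga2 and Cdh6 windows hold none of the 5 motifs, and the printed Itga3 window holds the interferon element and an E-box, and the Itgb8 window an E-box. Among the 9 members higher in M1, 7 had a window, and of these 7 windows 0 held the STAT site, the interferon element, the AP-1 site or the ATF4 element and 1, of Itgb8, held the E-box. Of 32851 windows of all genes, 8.3% held the STAT site, 3.44% the interferon element, 7.81% the AP-1 site, 3.97% the ATF4 element and 20.2% the E-box. Among the 7 members higher in TAM, 4 had a window, with 5 windows in all, and 3 windows, of Itga3, Itgb5 and Itgb8, held the E-box. A second Itga3 window, at chr11:95069149-95069448, held the AP-1 site. Among the 3 members lower in M1, 1 had a window, that of Itga9, and among the 5 lower in TAM, 2 had one. The Itga9 window, in both sets, held the E-box and the AP-1 site. This window, at chr9:118711442-118711741, lies inside the gene and not at its annotated start at 118606690. It was the only window with an E-box among the members that fell, so these windows do not settle whether the E-box was limited to members that rose. These are matches of letters and not binding sites, and a window with no match says only that these letters are not in it.

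Partner genes were read from 5 lists of integrin and cadherin pathway genes. Of 27 integrin ligands and matrix genes, 21 were tested, with 7 higher and 3 lower in M1 versus M0 and 7 higher and 5 lower in TAM versus M0, or 9 and 6 and 7 and 9 without M0 replicate 1. Of all tested genes 12.2% were higher and 13.5% lower in M1 and 23.3% and 27.2% in TAM, or 24.3% and 22.9% and 33% and 33.7% without that library, and the counts of all 5 lists are to be read beside these shares. The list's median log2 fold change was 0.16 in M1 and −0.22 in TAM, beside −0.02 for all genes in both. Fn1, fibronectin and the ligand of α5β1, stood at 78.6 ± 28.7 CPM in M0, 612 ± 7.93 in M1 and 572 ± 22.5 in TAM, a rise of 2.86 ± 0.24 in TAM. Ccn1, a matricellular ligand of αv integrins, rose by 1.90 ± 0.18 in M1 and by 4.77 ± 0.20 in TAM, from 14.0 ± 3.49 to 52.4 ± 8.46 and 383 ± 22.1 CPM. Npnt, nephronectin and the ligand of α8β1, fell in both, from 11.8 ± 3.47 to 2.20 ± 0.354 CPM in M1 and 1.08 ± 0.0720 CPM in TAM (adjusted p = 1.53e-05 and 1.03e-06), while its receptor gene Itga8 was higher in M1.

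Other ligands moved in 1 medium. Icam2, which encodes a ligand of leukocyte β2 integrins, was higher in M1 (8.29 ± 0.467 against 0.309 ± 0.0724 CPM, log2 4.71 ± 0.23) and at −0.03 ± 0.32 in TAM. Col1a1, the collagen I chain, was higher in TAM (9.35 ± 0.861 against 1.99 ± 0.540 CPM, log2 2.23 ± 0.22) and at 0.21 ± 0.24 in M1.

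Of 29 integrin activators and adaptors, 26 were tested, with 3 higher and 4 lower in M1 and 7 higher and 7 lower in TAM, and without M0 replicate 1 27 were tested, with 8 and 6 and 11 and 10. The TAM counts were near the 23.3% and 27.2% of all genes. The median log2 fold change of this list was 0.00 in M1 and −0.07 in TAM. Parvb, β-parvin, fell in both media, from 226 ± 20.6 CPM in M0 to 98.3 ± 4.63 in M1 and 70.1 ± 2.55 in TAM. Parvg, its leukocyte relative, had 2 counts in M0 and 193 in TAM, a ratio of 91.8 with a counting interval of 25.1 to 763. Its group means were 0.0368 CPM in M0, 0.139 in M1, 0.0689 in M2 and 3.26 in TAM. Only the TAM mean was above the 0.518 CPM of the count filter, so the direction of Parvg in TAM was set by the filter. Zyx, zyxin of focal adhesions, was higher in TAM (319 ± 4.74 against 111 ± 40.9 CPM, log2 1.52 ± 0.20), as was Rap1b, a GTPase that activates integrins (0.81 ± 0.09). Without M0 replicate 1, Zyx and Rap1b were also higher in M1 (0.33 ± 0.05 and 0.18 ± 0.05). Actn4, the actin crosslinker α-actinin-4, was higher in M1 (0.35 ± 0.09) and lower in TAM (−0.54 ± 0.09). Tns1, tensin 1, was lower in both (−0.58 ± 0.14 and −0.90 ± 0.14) and Tns2 lower in M1 and higher in TAM (−0.42 ± 0.09 and 0.34 ± 0.09).

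On the cadherin side, of 15 catenin, nectin and related genes, 11 were tested, with 0 higher and 2 lower in M1 and 1 higher and 1 lower in TAM, or 3 and 3 and 2 and 4 without M0 replicate 1, and the medians were −0.02 and −0.12. For all genes the shares were 12.2% and 13.5% in M1 and 23.3% and 27.2% in TAM. Jup, plakoglobin, was lower in M1 (3.23 ± 0.0788 against 4.89 ± 0.259 CPM, adjusted p = 0.0109), and so was the adhesion molecule gene Nectin4 (−1.88 ± 0.45). Nectin4 was below 1 CPM in both groups, at 0.156 ± 0.0797 CPM in M1 and 0.600 ± 0.114 CPM in M0. Nectin2 was higher in TAM (0.48 ± 0.15) and Ctnnal1, an α-catenin relative, lower (−0.48 ± 0.13). Without M0 replicate 1, Nectin2 was also higher in M1 (0.17 ± 0.07). Ctnnb1, β-catenin, was not called with all 12 libraries and was, without M0 replicate 1, lower in M1 (−0.69 ± 0.04) and in TAM (−0.68 ± 0.04). Adam10, the protease that sheds cadherins, was then higher in M1 (0.50 ± 0.04) and lower in TAM (−0.20 ± 0.04), and Ctnna1, α-catenin, was higher in TAM (0.12 ± 0.04).

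Of 6 transcription factors known to repress E-cadherin, 3 were tested, with 1 higher in M1, 2 higher in TAM and 0 lower, or 2, 3 and 0 without M0 replicate 1. Beside these few genes, 12.2% of all genes were higher in M1 and 23.3% in TAM, or 24.3% and 33% without that library. Snai2, or Slug, was higher in both (2.67 ± 0.891 CPM in M0, 5.58 ± 0.552 in M1, 5.39 ± 0.900 in TAM, adjusted p = 0.00764 and 0.00448). Zeb1 had 1 count in M0 and 66 in TAM, a ratio of 62.8 with a counting interval of 10.9 to 2520. Its group means were 0.016 CPM in M0, 0.124 in M1, 0.189 in M2 and 1.11 in TAM. Only the TAM mean was above the 0.518 CPM of the count filter, so the direction of Zeb1 in TAM was set by the filter. Zeb2, at 179 ± 108 CPM in M0, was not called with all 12 libraries and was called without M0 replicate 1, with changes of 0.47 ± 0.04 in M1 and 0.13 ± 0.04 in TAM.

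Of 23 other genes of the cadherin superfamily, 8 were tested, with 1 higher and 1 lower in M1 and 1 higher and 2 lower in TAM, and without M0 replicate 1 9 were tested, with 4 and 2 and 2 and 3. The medians with all libraries were 0.18 and −0.01, and the shares of all genes higher and lower 12.2% and 13.5% in M1 and 23.3% and 27.2% in TAM. Pcdh1, a protocadherin, was higher in M1 (1.26 ± 0.13) and TAM (0.41 ± 0.13), and Clstn1, calsyntenin 1, was lower in both (−0.51 ± 0.08 and −0.26 ± 0.08). Celsr2, a planar polarity cadherin, was lower in TAM (16.8 ± 1.14 against 52.6 ± 21.2 CPM, log2 −1.65 ± 0.25). Without M0 replicate 1, Celsr2 was also lower in M1 (−0.73 ± 0.07). The giant atypical cadherin genes and Pcdh7 were called without M0 replicate 1 and not with it, Fat1 higher in M1 (0.44 ± 0.05), Fat2 higher in TAM (0.41 ± 0.13), and Pcdh7 higher in M1 (0.26 ± 0.08) and lower in TAM (−0.65 ± 0.08). In M2 versus M0, 0 genes of these 5 lists were called with all 12 libraries, and 1 integrin ligand gene without M0 replicate 1.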

How the data were processed

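Values were raw read counts of 12 melanoma libraries, deposited by the authors as 1 table. HISAT2 2.0 and mm10 are named per the submitters' processing notes, while counter, annotation release and strand setting were not given in the sources used here, so counts of overlapping genes are uncertain. Symbols were found for 55141 of 55487 Ensembl identifiers, and coordinates and merged exon lengths come from GENCODE M21.

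Counts were analysed with edgeR 4.0.16 in R 4.3.3 (filterByExpr by group, TMM, 1 robust quasi-likelihood fit of all 12 libraries, Benjamini-Hochberg adjustment over 14591 genes, or 14968 without M0 replicate 1). Every adjusted p comes from this test unless DESeq2 is named. SE is the absolute log2 change divided by the square root of F. Limits of 3 counts cover counting error only, since reads lacking molecular identifiers can be copies of 1 molecule. The steps were tested on simulated data.

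Every member with a mean of 1 CPM was described, members called with a 2-fold change in a comparison by library, and up to 4 genes per list by smallest adjusted p. Members, lists and rules were chosen with earlier results of these data known. Alternatives were RLE and upper-quartile scaling, no filter, DESeq2 1.42.0, fits of 2 groups, a replicate block, each library left out, and other CPM minimums.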

Additional observations from a re-analysis of the deposited data

How the results depend on the processing

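Of the 62 calls of a member in a comparison, 62 kept direction and threshold under RLE scaling and without M0 replicate 1, 61 under upper-quartile scaling and DESeq2, and 59 without a filter on low counts. With the replicate block 59 were kept, and the members called numbered 11 in M1 versus M0, 0 in M2, 11 in TAM, 15 in TAM versus M1, 14 in TAM versus M2 and 9 in M1 versus M2. Same-numbered libraries deviated together at correlations of −0.202 to 0.247 over 18 pairs of libraries and 5 of 12 libraries correlated best with their own number, so the numbers were not taken as pairs. Fits of only the 2 groups compared called 5 members in M1 versus M0 (12 in the fit of all groups), 22 in TAM versus M1 (14) and 18 in M1 versus M2 (10), and the cause was not tested. With each library left out in turn, the counts ranged from 7 (without M1 replicate 3) to 19 (without M0 replicate 1) in M1 versus M0, from 9 (without TAM replicate 3) to 18 in TAM versus M0, from 12 to 22 in TAM versus M1, from 12 to 19 in TAM versus M2 and from 6 to 18 in M1 versus M2, the highest each time without M0 replicate 1. The M1 versus M2 count was 6 without M1 replicate 1, M1 replicate 3 or M2 replicate 2. M2 versus M0 gave 0 throughout. These counts are not set beside the share of all genes called in each setting, so they are no result about the family. For the fit without M0 replicate 1, those shares are given above. In every setting 5 of 12 calls were kept in M1 versus M0 (Itga2, Itga8, Itga9, Cdh6 and Cdh15) and 8 of 12 in TAM versus M0 (Itga3, Itga5, Itga7, Itgb3, Itgb5, Itgb8, Cdh1 and Cdh13). Of these genes, Cdh6 and Cdh15 reached the level of the count filter in M1 libraries alone, and Cdh1 in M0 and M2 libraries alone. Among the 62 calls and 34 values called without M0 replicate 1 but not with all libraries, directions reversed only for uncalled values: Cdh2 in M1 (−0.16 with all libraries) was −0.459, 0.033 and 0.056 without M0 replicate 1, 2 and 3, Itga1 in M1 (−0.22) was −0.484 and 0.013 without M0 replicate 1 and 3, and Itga6 in TAM (−0.12) was −0.493, 0.057 and 0.12 without M0 replicate 1, 2 and 3. The number of members with 1 CPM was 27 at a minimum of 0.5 CPM, 25 at 2 CPM and 26 otherwise.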
